A study of Mus musculus with 15 samples.

Results

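Id1, Id2, Id3, Id4, Smad6, Smad9, Msx1, Msx2 and Atoh8 are target genes of bone morphogenetic protein (BMP) signalling, and they were taken by name as 9 of the 24451 gene rows of the deposited count table. The table holds RNA sequencing of ES-R1 mouse embryonic stem cells, at fewer than 20 passages per the labels and listed under inner cell mass as their source. Their medium was free of serum and held N2 and B27, and they were studied over 4 days of differentiation. All of them carried an siRNA: a control siRNA with no addition, with Activin A at 25 ng/ml or with the inhibitor SB, or a Vprbp siRNA with no addition or with Activin A at 25 ng/ml. Each of these 5 groups had 3 libraries. SB was given with the control siRNA only, so its effect in cells with the Vprbp siRNA was not measured. The sample titles spell the inhibitor SB431524 and the series text SB431542, and no dose of it is stated. The labels do not say that the replicates were separate cultures, and the p-values below cover the spread among these libraries only, part of which may be technical.

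BMP ligands bind a receptor pair on the cell surface, which phosphorylates Smad1, Smad5 and Smad9. These join Smad4 and switch on target genes. Activin, Nodal and TGF-beta use other type I receptors and other Smads, and SB431542 is an inhibitor of those receptors that largely spares the BMP receptors. The Id proteins carry a helix-loop-helix domain but no DNA-binding region, and they hold E proteins and their tissue-specific bHLH partners off the DNA. In mouse embryonic stem cells, BMP and Id proteins are known for holding back neural differentiation. Vprbp, also called Dcaf1, is a substrate receptor of a Cullin-RING ubiquitin ligase.

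In GENCODE's annotation of GRCm38 the 9 genes lie on 8 chromosomes. Id1 spans chr2:152736251-152737410 on the plus strand, Id2 spans chr12:25093799-25097140 on the minus strand, Id3 spans chr4:136143497-136145755 on the plus strand and Id4 spans chr13:48261228-48266026 on the plus strand. Smad6 lies at chr9:63953076-64022059 on the minus strand and Smad9 at chr3:54755582-54801257 on the plus strand. Msx1 lies at chr5:37820485-37824583, Msx2 at chr13:53466884-53473074 and Atoh8 at chr6:72206177-72235577, all on the minus strand. An exon of Id4 overlaps an exon of the antisense gene A330033J07Rik, which is also in the table. No strand setting of the counting is stated, and reads of these genes cannot be told apart. None of the other 8 genes overlapped another annotated gene.

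RefSeq promoter sequences (GRCm38.p6) were matched for 8 of the 9 genes, all except Id1. Id2 and Id4, which were higher with SB, and Smad6, which did not pass the test, are printed as examples. Each sequence comes from the 250 bases before the start used in the RefSeq promoter set. It is the stretch of these that lies outside annotated exons and the RefSeq gene, read 5′ to 3′ on the gene's strand. Capitals mark GGCGCC, a GC-rich element that BMP-activated Smads are known to bind.
Id2, chr12:25096254-25096342, minus strand: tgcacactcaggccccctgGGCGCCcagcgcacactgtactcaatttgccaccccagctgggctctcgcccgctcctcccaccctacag
Id4, chr13:48260866-48261115, plus strand: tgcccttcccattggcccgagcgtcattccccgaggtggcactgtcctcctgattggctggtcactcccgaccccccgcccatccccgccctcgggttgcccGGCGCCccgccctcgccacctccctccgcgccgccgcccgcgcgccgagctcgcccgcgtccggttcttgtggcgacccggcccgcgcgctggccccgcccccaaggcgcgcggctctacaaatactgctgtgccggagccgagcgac
Smad6, chr9:64022086-64022309, minus strand: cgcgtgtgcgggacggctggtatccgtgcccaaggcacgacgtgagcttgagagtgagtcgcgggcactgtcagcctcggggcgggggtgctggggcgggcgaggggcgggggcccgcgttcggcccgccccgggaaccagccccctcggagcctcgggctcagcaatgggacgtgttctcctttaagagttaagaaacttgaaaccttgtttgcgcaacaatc
The 6 letters GGCGCC, which read the same on both strands, occurred once each in the 250 bases before the start of Id2 (231 bases before it), Id4 (148 bases) and Smad9 (51 bases, a place within the RefSeq gene's span). Id3, Msx2 and Atoh8, also higher with SB, had no match, nor had Smad6 and Msx1, while Smad9 was not called with SB. The same letters were in 9.59% of all 32851 RefSeq promoters of that length. The searched bases were richer in G and C, at 61.6% (Msx2) to 75.6% (Id4), than the median of all promoters, 52.4%. A part of base content in the matches was not tested. GTCTG, searched on both strands, was found in Id3 alone, at 167 and 68 bases before its RefSeq start, and was in 42.2% of all promoters. The searched bases of Id2, Id3 and Msx2 lie within the GENCODE spans given above, which begin upstream of the RefSeq starts. Those of Smad6, Smad9 and Atoh8 lie in part, and for Atoh8 mostly, within the RefSeq gene spans, which begin upstream of the starts used. CACCTG, an E-box, was found on either strand in Smad9 and Msx1 and in 17.2% of all promoters. These matches are descriptions of letters and no binding was measured.

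Counts in genes ran from 11.1 to 15.5 M (M, mega) per library, and 3 counts, the most that a count of 0 allows, corresponded to 0.196 to 0.271 counts per M (CPM). Vprbp itself was at 171 ± 3.60 CPM (SD, n = 3) with the control siRNA and 122 ± 8.91 CPM (SD, n = 3) with the Vprbp siRNA. With Activin it was at 179 ± 4.41 and 138 ± 9.23 CPM (SD, n = 3 each). It fell by 0.49 ± 0.06 (SE, edgeR adjusted p = 0.0020) and 0.37 ± 0.06 (adjusted p = 0.037) on the log2 scale, a partial knockdown. The 10 embryonic stem cell markers were detected in all 5 groups, with a summed level of 4309 to 5028 CPM in the 12 libraries without SB and 2939 to 3273 CPM in the 3 SB libraries. The libraries of control siRNA replicate 3, Vprbp siRNA replicate 3 and Vprbp siRNA with Activin replicate 1 lay apart from their groups in a principal component analysis. Where leaving one of them out ended a call named here, the value without it is given. In bulk RNA, fewer cells that express a gene and less of its RNA per cell cannot be told apart.

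Per length, in counts per kilobase and M (RPKM), Smad6 was the most abundant of the 9 genes with the control siRNA alone, at 5.83 RPKM. It was followed by Id1 at 4.85, Id3 at 1.94, Id2 at 1.87 and Msx2 at 1.15 RPKM. Atoh8, Id4, Smad9 and Msx1 were at 0.47, 0.42, 0.17 and 0.08 RPKM. With SB the order was Id1 at 19.5, Id3 at 13.9, Id2 at 7.15 and Smad6 at 5.28 RPKM. Id1, Id3 and Id2 stood above Smad6 in the SB group and below it in the control siRNA group.

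SB gave the clearest pattern among these genes. Of the 8 that passed the filter on low counts, 6 were higher with SB than with no addition and none was lower: Id1, Id2, Id3, Id4, Msx2 and Atoh8. Over all 14600 genes tested, 22.6% were called in either direction and 11.2% were called higher. The median log2 fold change was 1.34 over the 8 genes and -0.0048 over all genes. DESeq2 also called 6, and edgeR called 5, Id4 no longer among them, without the 3 libraries that lay apart, a setting chosen after seeing the data.

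Id1 was at 5.02, 5.73 and 6.14 CPM in the control siRNA libraries and at 25.1, 24.7 and 18.1 CPM with SB. Id3 was at 3.12, 3.99 and 3.30 CPM without and 26.6, 23.7 and 24.1 CPM with SB. Id2 was at 5.63, 3.91 and 4.12 CPM without and 16.7, 18.1 and 17.5 CPM with SB. In all 3 genes every SB library exceeded every library of the other 4 groups, whose highest values were 14.3 CPM for Id1, 8.64 for Id2 and 16.4 for Id3. Id1 rose by 2.01 ± 0.44 (SE) on the log2 scale (edgeR adjusted p = 0.0067), Id2 by 1.93 ± 0.24 (adjusted p = 1.2e-05) and Id3 by 2.84 ± 0.51 (adjusted p = 0.0020). The CPM of the 4 Id genes summed to 14.8 to 16.0 with the control siRNA alone and to 62.9 to 71.4 with SB.

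Id4, the family member with the lowest level, was at 2.24, 1.30 and 1.27 CPM without SB and at 2.98, 2.89 and 3.22 CPM with it. These groups did not overlap, but Vprbp siRNA replicate 3, at 3.01 CPM, lay within the SB range. Id4 rose by 0.90 ± 0.28 (SE) on the log2 scale (edgeR adjusted p = 0.025). Its counts were 17 to 45 per library in these groups. The call did not hold without control siRNA replicate 2 (adjusted p = 0.11) or replicate 3 (adjusted p = 0.085), or without SB replicate 1 (adjusted p = 0.058) or replicate 3 (adjusted p = 0.072).

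**Figure D1:**
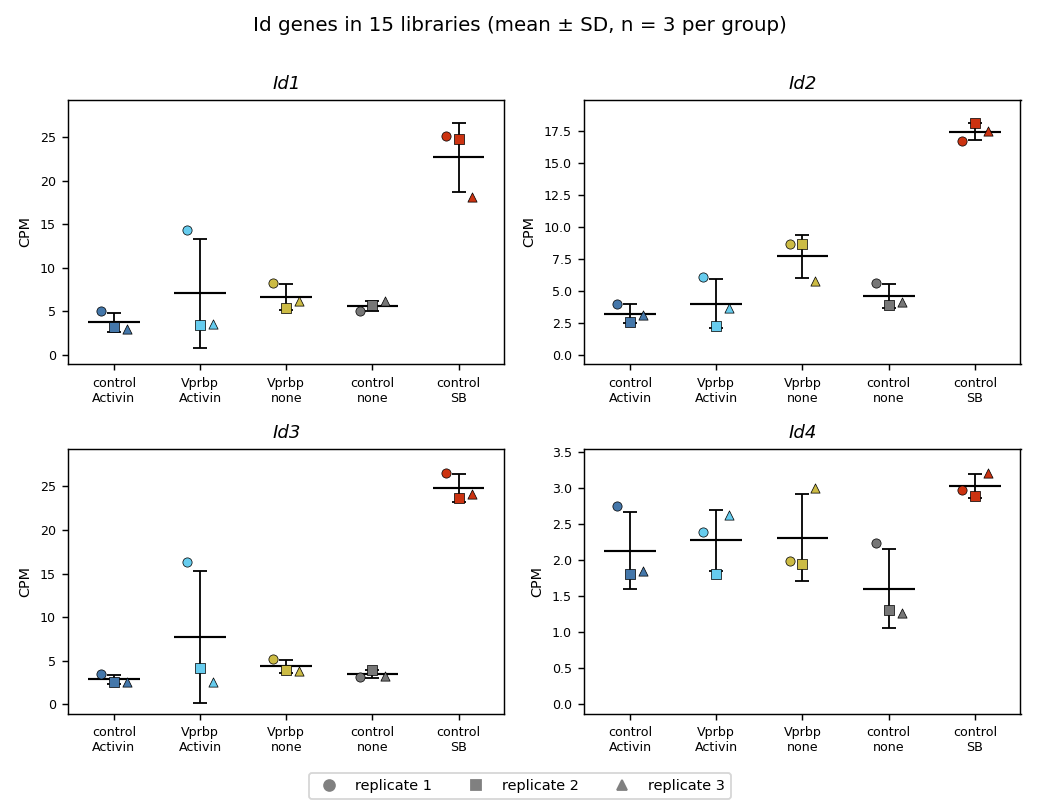
CPM of Id1, Id2, Id3 and Id4 (linear axis) in the 15 libraries, by group. Symbols are replicates and horizontal lines with bars are mean ± SD, n = 3. For Id1, Id2 and Id3 the SB libraries lie above all others, and Vprbp siRNA with Activin replicate 1 lies apart from its group at 14.3 CPM for Id1 and 16.4 CPM for Id3.

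Msx2, a homeobox repressor downstream of BMP, was at 3.26, 3.26 and 4.79 CPM without and 6.40, 6.00 and 7.23 CPM with SB. Atoh8, a bHLH factor, was at 0.81, 0.72 and 2.02 CPM without and 5.31, 4.41 and 2.51 CPM with SB. Both groups of values separated completely, with Atoh8 closest at control siRNA replicate 3 and SB replicate 3. Msx2 rose by 0.80 ± 0.20 (SE) on the log2 scale (edgeR adjusted p = 0.0069) and Atoh8 by 1.78 ± 0.40 (adjusted p = 0.0026).

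Smad6, an inhibitory Smad that BMP is known to induce, was at 19.8, 20.4 and 15.9 CPM without and 16.9, 18.7 and 15.2 CPM with SB. Its ranges overlapped, and the fitted difference was -0.14 ± 0.12 (SE) on the log2 scale (edgeR adjusted p = 0.45). Smad9, a BMP receptor-activated Smad, was at 0.54, 1.01 and 1.12 CPM without and 1.45, 1.01 and 0.93 CPM with SB. These overlapped too, with a fitted log2 difference of 0.35 ± 0.39 (SE, adjusted p = 0.58), from 8 to 20 counts per library. Msx1, the paralog of Msx2, failed the filter on low counts. It had 3, 1 and 6 counts with the control siRNA and 3, 1 and 5 counts with SB, at or near the 3 counts that a library with no count allows.

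**Figure D2:**
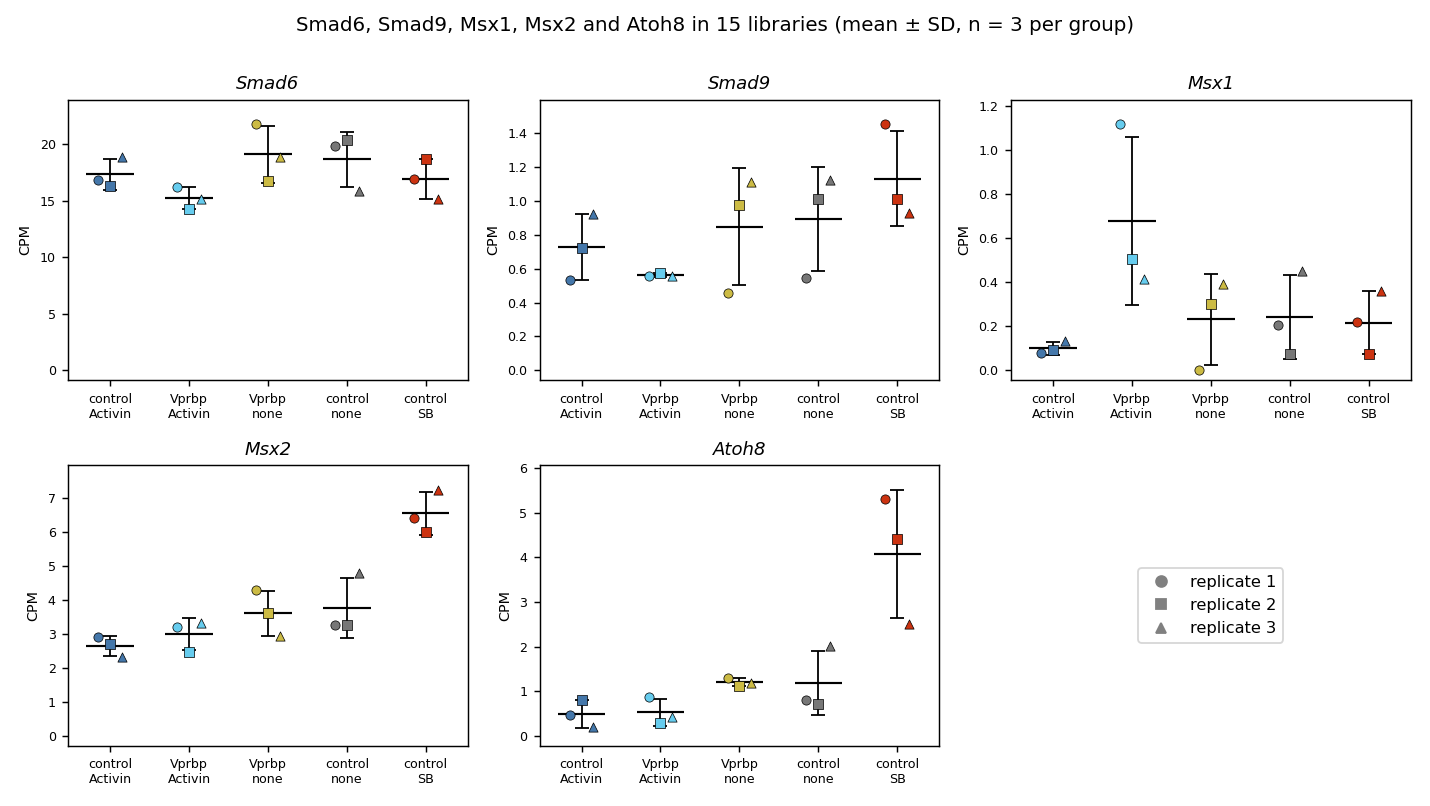
CPM of Smad6, Smad9, Msx1, Msx2 and Atoh8 (linear axes that differ between panels) in the 15 libraries, by group. Symbols are replicates and lines with bars are mean ± SD, n = 3. SB libraries lie above the other groups for Msx2 and Atoh8 and among them for Smad6 and Smad9.

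With SB, the lists of other pathway genes differed in direction and in how many of their genes were called. Of the 9 ligands tested (14 listed), 1 rose and none fell: Bmp7, by 0.40 ± 0.10 (SE) on the log2 scale, with a list median of 0.35. Bmp4 was at 34.9 ± 1.67 CPM without and 39.6 ± 0.54 CPM with SB (SD, n = 3 each) and was not called. Of 11 receptors and co-receptors, Rgma, a BMP co-receptor, rose by 1.34 ± 0.19 and Bmpr1a, a BMP type I receptor, by 0.40 ± 0.06, and Eng, a co-receptor, fell by 0.36 ± 0.10. The median of that list was 0.16. None of Smad1, Smad5 and Smad4 was called (median 0.068).

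Of the 10 extracellular antagonists tested (15 listed), Nbl1 rose by 1.28 ± 0.28 (SE) and Twsg1 by 0.27 ± 0.06 on the log2 scale, and none fell. Their median was 0.14. Cer1 had no count in any SB library, against 1.22, 0.07 and 0.45 CPM with the control siRNA alone. Among 8 intracellular and membrane inhibitors, 5 fell and none rose, with a median of -0.75. Smad7 fell by 1.97 ± 0.20, Pmepa1 by 1.68 ± 0.10, Ski by 0.80 ± 0.07 and Tob1 by 0.70 ± 0.10 on the log2 scale. Smad7 and Smad6 are both inhibitory Smads, and Smad7 was at 61.3, 46.6 and 37.4 CPM without SB and at 10.6, 14.2 and 12.3 CPM with it. The Smad7 ranges were far apart, whereas those of Smad6 overlapped.

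Of the 11 further BMP target genes tested (14 listed), 4 rose and 1 fell with SB. Gata2, Hand1, Gata3 and Dlx3, transcription factors of trophoblast, mesoderm and surface ectoderm, rose by 2.23 ± 0.24, 2.03 ± 0.31, 1.87 ± 0.38 and 0.96 ± 0.14 (SE) on the log2 scale. Hey1, also a Notch target, fell by 0.75 ± 0.25. The median of this list was -0.085, against -0.0048 over all genes. Of the 10 E protein and other bHLH genes tested (16 listed, median -0.20), Tcf12, an E protein, rose by 0.44 ± 0.08, and the neural factors Neurod1 and Olig1 fell by 1.27 ± 0.22 and 1.63 ± 0.32.

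**Figure D3:**
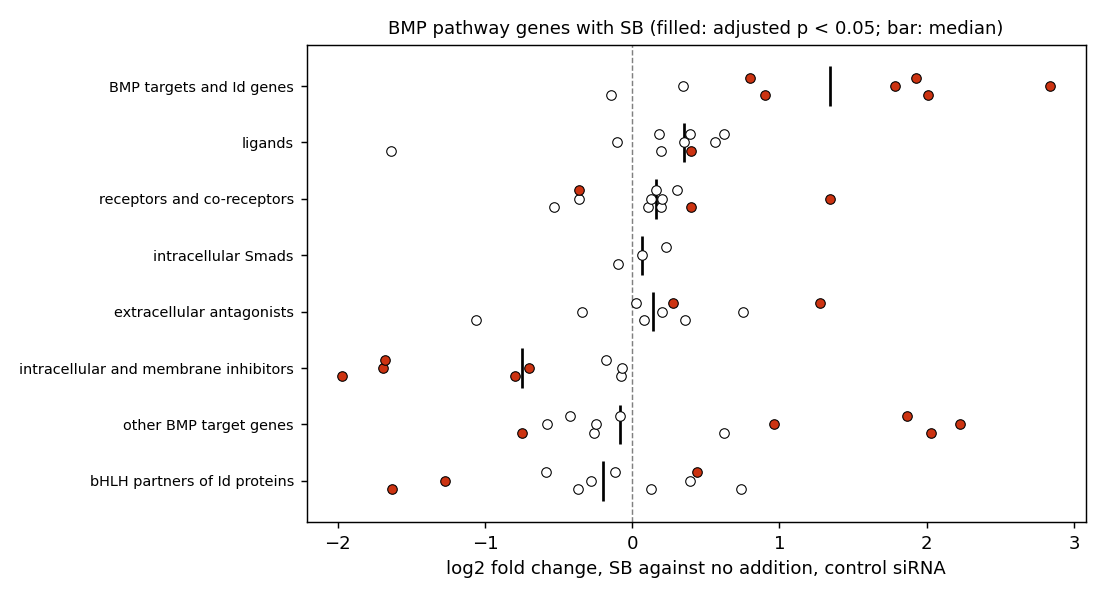
Log2 fold change with SB against no addition (control siRNA) of the 8 tested BMP target and Id genes and of 7 lists of related genes. Each circle is a gene, filled where the edgeR adjusted p was below 0.05, and bars are list medians; Cer1, which had no count with SB, is left out of the circles. The BMP targets and Id genes have their median at 1.34, and the intracellular and membrane inhibitors theirs at -0.75.

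Marker lists of other cell types were read beside these genes, by their summed CPM in the control siRNA libraries without and with SB. The 8 surface ectoderm and neural crest markers summed to 88.9 to 92.1 CPM without and 133 to 181 CPM with SB, but the list was split. Of 6 tested, Tfap2a and Krt18 rose by 0.70 ± 0.18 and 1.08 ± 0.30 (SE) on the log2 scale. Sox10 and Foxd3 fell by 1.31 ± 0.20 and 2.03 ± 0.36, and Krt8 and Snai2 were not called. The call for Krt18 was lost without control siRNA replicate 3 (edgeR adjusted p = 0.063). Krt14 had no count in the SB group and Trp63 stayed under 0.3 CPM.

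The 8 trophoblast markers had overlapping sums, at 129 to 161 CPM without and 151 to 181 CPM with SB. Of 7 tested, Hand1, Gata3 and Krt7 rose and none fell, and Hand1 and Gata3 are also in the list of further BMP targets. The 7 extraembryonic endoderm markers summed to 86.8 to 92.6 CPM without and 97.9 to 113 CPM with SB, where Sox7 rose and Afp had no count. The 8 fibroblast markers summed to 150 to 188 CPM without and 118 to 141 CPM with SB, where Col1a1 and Col3a1 fell. Sums of the 8 neuroectoderm markers (272 to 365 against 285 to 309 CPM) and the 7 mesoderm markers (7.42 to 9.57 against 6.87 to 8.87 CPM) overlapped. Within the neuroectoderm list, calls went both ways. Hesx1 and Pax6, among others, rose by 3.70 ± 0.22 and 0.73 ± 0.13 (SE) on the log2 scale. Sox1 and Sox3 fell by 0.88 ± 0.13 and 1.26 ± 0.21. The part of these cell types in the higher Id levels was not tested.

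Activin with the control siRNA left the 8 tested genes without a call. Over all genes 4.83% were called, and edgeR and DESeq2 both called 0 of these 8. An unadjusted edgeR p under 0.05 was reached by 2 of the 8 and by 3012 of all 14600 genes. Id1 was at 4.97, 3.16 and 2.98 CPM with Activin and Msx2 at 2.91, 2.71 and 2.31 CPM. Every one of these values was below the lowest untreated control, with fitted log2 differences of -0.60 ± 0.52 (SE) for Id1 (adjusted p = 0.56) and -0.51 ± 0.22 for Msx2 (adjusted p = 0.20). Atoh8 was at 0.46, 0.81 and 0.20 CPM, overlapping the untreated range, with a log2 difference of -1.32 ± 0.54 (adjusted p = 0.16). The other differences were -0.50 ± 0.28 for Id2, -0.28 ± 0.62 for Id3, 0.40 ± 0.30 for Id4, -0.10 ± 0.12 for Smad6 and -0.27 ± 0.42 for Smad9, with adjusted p from 0.33 to 0.85. Of the 8 intracellular and membrane inhibitors 3 rose with Activin: Smad7 by 1.05 ± 0.17, Pmepa1 by 0.75 ± 0.09 and Ski by 0.31 ± 0.07 on the log2 scale. Hey1 rose by 0.84 ± 0.22 and Hes6, a bHLH factor, by 0.56 ± 0.15, and no ligand, receptor or antagonist was called. Without control siRNA replicate 3 the calls of Ski (edgeR adjusted p = 0.055), Hey1 (0.17) and Hes6 (0.13) were lost.

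Activin and SB were also set against each other. Of the 8 genes, 5 were lower with Activin than with SB, where 38.0% of all genes were called and 19.0% were lower. Id3 fell by 3.12 ± 0.53 (SE), Atoh8 by 3.11 ± 0.47, Id1 by 2.61 ± 0.47, Id2 by 2.43 ± 0.25 and Msx2 by 1.31 ± 0.21 on the log2 scale (edgeR adjusted p from 5.8e-07 to 0.0010). None of these 5 genes had overlapping ranges, a separation that was not counted over all genes. Id4, at 2.75, 1.81 and 1.85 CPM with Activin, lay below all SB libraries but was not called (log2 difference -0.50 ± 0.28, adjusted p = 0.16). The comparisons with SB share the SB libraries, and those with no addition share the control libraries. Of the inhibitors, 7 of 8 were higher with Activin than with SB.

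**Figure D4:**
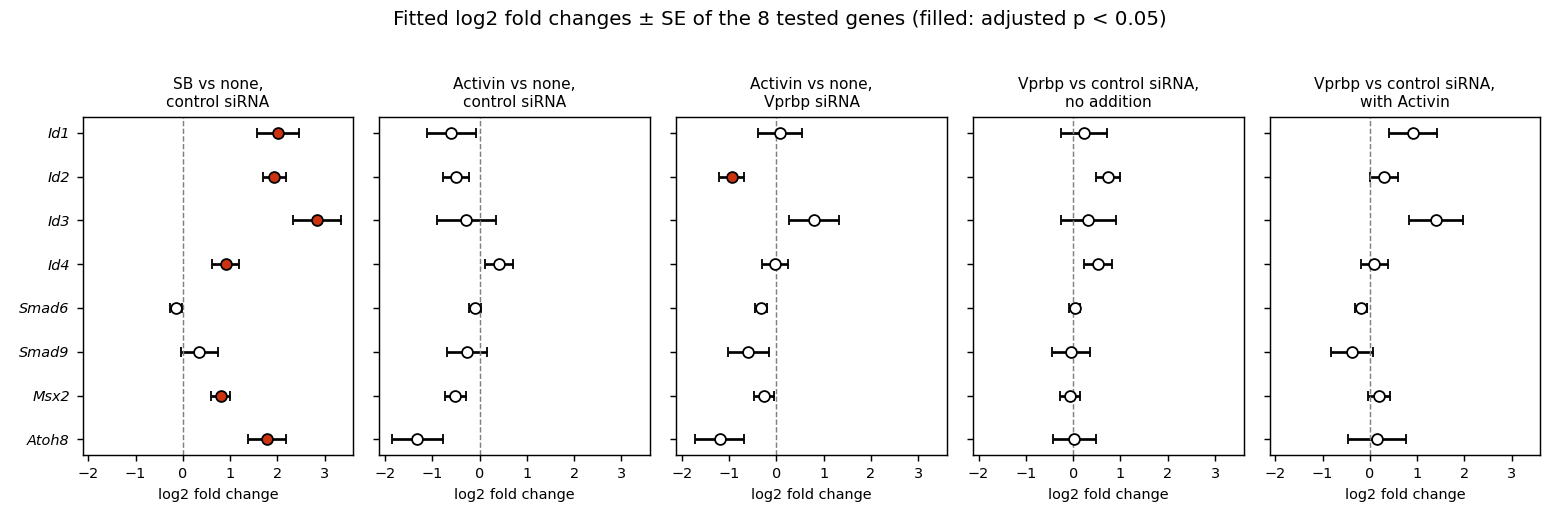
Fitted log2 fold change ± SE (horizontal axis) of the 8 tested genes in 5 comparisons, filled where the edgeR adjusted p was below 0.05. Filled points are 6 with SB and 1, Id2, for Activin in cells with the Vprbp siRNA.

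In cells with the Vprbp siRNA, Activin gave 1 call among the 8 genes. Over all genes 6.12% were called and 2.47% were lower. Id2 was at 8.63, 8.64 and 5.76 CPM without Activin and at 6.07, 2.24 and 3.68 CPM with it. The ranges overlapped, since replicate 1 with Activin lay above Vprbp siRNA replicate 3. Id2 fell by 0.95 ± 0.26 (SE) on the log2 scale (edgeR adjusted p = 0.035). The call was lost when only the compared libraries were fitted (adjusted p = 0.16), and without Vprbp siRNA replicate 1 (0.12) or replicate 2 (0.087), or the Activin replicate 2 (0.17) or replicate 3 (0.082).

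Vprbp siRNA with Activin replicate 1 stood apart in Id1 and Id3. Id1 was at 14.3 CPM there and at 3.39 and 3.54 CPM in the other libraries of its group, and Id3 at 16.4 against 4.12 and 2.57 CPM. Msx1 had 14 counts there and 7 and 6 in the others. Id2, at 6.07 against 2.24 and 3.68 CPM, and Atoh8, at 0.88 against 0.29 and 0.42 CPM, were also highest there. Id4, at 2.40 against 1.81 and 2.64 CPM, and Smad6, at 16.2 against 14.3 and 15.2 CPM, did not stand apart. Brachyury (T), a mesoderm marker, was at 71.9 CPM in this library against 19.1 and 15.7 CPM, and the 7 mesoderm markers summed to 80.9 CPM against 25.3 and 24.3 CPM. Hand2 stayed under 0.3 CPM in all 3. The 8 surface ectoderm and neural crest markers summed to 343 CPM against 195 and 155 CPM. Sums of extraembryonic endoderm (170 against 113 and 111 CPM), trophoblast (151 against 110 and 115 CPM) and fibroblast markers (207 against 175 and 146 CPM) were also highest there. The same held, at close values, for embryonic stem cell (4787 against 4772 and 4590 CPM) and neuroectoderm markers (490 against 479 and 462 CPM). Each marker list was thus highest in this library, and a part of any cell type in its Id values was not tested.

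With all libraries the log2 difference with Activin in Vprbp siRNA cells was 0.08 ± 0.47 (SE) for Id1 and 0.80 ± 0.53 for Id3, and neither was called. Without that library Id1 fell by 0.92 ± 0.24 (edgeR adjusted p = 0.029), Id2 by 1.35 ± 0.25 (adjusted p = 0.0024), and Id3 differed by -0.37 (adjusted p = 0.41). The sign for Id1 and Id3 thus changed without that library, and the sign for Id1 also changed in other fits that kept it. Smad6 was lower in all 3 libraries with Activin (21.8, 16.8 and 18.8 CPM without, 16.2, 14.3 and 15.2 CPM with it), at -0.33 ± 0.12 (adjusted p = 0.13). Atoh8 was also lower in all 3 (1.30, 1.13 and 1.18 CPM without, 0.88, 0.29 and 0.42 CPM with), at -1.20 ± 0.52 (adjusted p = 0.20).

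**Figure D5:**
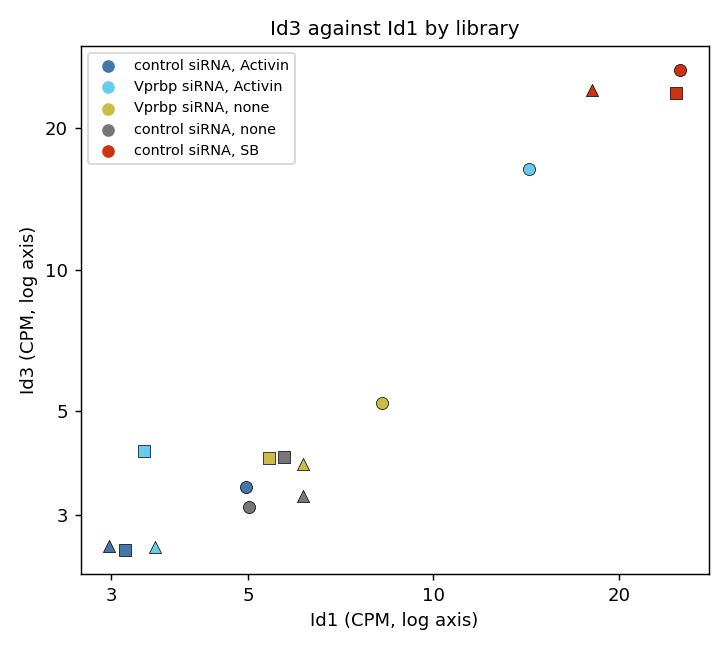
Id3 against Id1 in the 15 libraries (CPM, both axes logarithmic), coloured by group with symbols for replicates 1 (circle), 2 (square) and 3 (triangle). The SB libraries lie at the upper right, and Vprbp siRNA with Activin replicate 1 lies between them and the remaining 11 libraries.

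With Activin in Vprbp siRNA cells, the lists of ligands, antagonists, inhibitors, further BMP targets and bHLH genes each held calls. No receptor, co-receptor or intracellular Smad was called, and over all genes 6.12% were. Among 9 ligands 1 rose, Bmp2, by 2.37 ± 0.59 (SE) on the log2 scale (edgeR adjusted p = 0.034). Bmp2 was at 16.2, 5.27 and 2.29 CPM with Activin, highest in replicate 1, and at 1.44 to 1.60 CPM without. Without that replicate its log2 difference was 1.32 ± 0.36 (adjusted p = 0.037), and the call was lost without Vprbp siRNA replicate 3 (adjusted p = 0.16). Among 10 antagonists 1 rose, Nog, a secreted BMP antagonist, by 2.00 ± 0.38, and by 1.47 ± 0.35 (adjusted p = 0.017) without Activin replicate 1.

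Of the 8 inhibitors 3 rose: Smad7 by 0.93 ± 0.17 (SE), Pmepa1 by 0.94 ± 0.09 and Bambi, a pseudoreceptor, by 0.44 ± 0.13 on the log2 scale. Of 11 further BMP targets Tbx3 and Klf4 fell by 0.90 ± 0.16 and 0.49 ± 0.12 and Hes1 rose by 0.47 ± 0.13, and of 10 bHLH genes Hes6 rose by 0.59 ± 0.14. Without Activin replicate 1 the calls of Bambi (edgeR adjusted p = 0.11), Hes1 (0.14) and Klf4 (0.079) were lost. Without Vprbp siRNA replicate 3 the same 3 were lost (0.18, 0.12 and 0.12), and Hes6 with them (0.092).

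The Vprbp siRNA alone called none of the 8 genes, and 0.0411% of all genes (6 of 14600), by edgeR; DESeq2 also called 0 of the 8 and 31 of all genes, and 18 were called with a replicate block. Id2 was at 5.63, 3.91 and 4.12 CPM with the control and 8.63, 8.64 and 5.76 CPM with the Vprbp siRNA. All 3 Vprbp libraries were higher, and the fitted log2 difference was 0.74 ± 0.25 (SE, edgeR adjusted p = 0.47), the one of the 8 at an unadjusted p under 0.05. Of all 14600 genes, 1191 had an unadjusted p under 0.05. The remaining 7 differences lay between -0.07 and 0.53.

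With Activin, Vprbp against control siRNA gave 0 calls of 8 and 0.0411% of all genes by edgeR, and DESeq2 gave 0 of the 8. Id3 alone of the 8 had an unadjusted p under 0.05, as had 1532 of all 14600 genes. Its log2 difference was 1.40 ± 0.57 (SE, edgeR adjusted p = 0.42) with all libraries and 0.23 without Vprbp siRNA with Activin replicate 1. Id1 differed by 0.91 ± 0.51 (adjusted p = 0.56) and by -0.09 without that library. Smad6 was lower in all 3 Vprbp libraries (14.3 to 16.2 against 16.3 to 18.9 CPM) and not called.

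Over both Activin levels none of the 8 was called by edgeR or DESeq2, against 0.938% of all genes by edgeR. An unadjusted edgeR p under 0.05 was reached by 1 of the 8 and by 2138 of all 14600 genes. Id2 differed by 0.52 ± 0.19 (SE) on the log2 scale (edgeR adjusted p = 0.22; unadjusted p = 0.014), and Id3 by 0.86 ± 0.41 (adjusted p = 0.36). Bmp7 fell by 0.33 ± 0.08 (adjusted p = 0.045), the one gene of the BMP lists called here, and its call was lost without control siRNA replicate 3 (adjusted p = 0.090). A difference of the Activin response between the siRNAs was called for 0 of the 8 genes and 0% of all 14600 by edgeR, and for 0 by DESeq2, with 0 of the 8 and 517 of all genes at an unadjusted p under 0.05. Its fitted difference was 0.68 ± 0.70 for Id1 and 1.08 ± 0.82 for Id3, and -0.31 and -0.09 without Vprbp siRNA with Activin replicate 1. Msx1 had 1, 1 and 2 counts with Activin and the control siRNA and 14, 7 and 6 counts with Activin and the Vprbp siRNA. These did not overlap, but at these counts its adjusted p without the filter was 0.31.

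Setting the group means of each gene in order, SB was highest for 7 genes: Id1, Id2, Id3, Id4, Smad9, Msx2 and Atoh8. No other group overlapped it for 5 of these, Id4 and Smad9 excepted. How many of all tested genes separate in this way was not counted. Below SB, neighbouring groups overlapped for Id3, Msx2 and Atoh8 throughout. Id2 with the Vprbp siRNA lay just above the control siRNA, at a lowest 5.76 against a highest 5.63 CPM. It overlapped the Vprbp siRNA with Activin, whose highest value was 6.07 CPM. For Id1 the control siRNA lay just above the control siRNA with Activin, at a lowest 5.02 against a highest 4.97 CPM. Neither Id2 between the siRNAs without additions nor Id1 between these 2 groups was called. Neighbouring groups all overlapped for Id4, Smad6, Smad9 and Msx1.

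The genes most alike in pattern were chosen by Pearson correlation of log2 CPM over the 15 libraries, given as a description since the SB libraries form a cluster of their own and all genes share each library. For Id1 these were Rgma, Cd24a and Kitl, with r = 0.96 each. For Id2 they were Zbtb16 (0.96), Thsd4 (0.95) and Nrp2 (0.95). For Id3 they were Cd24a (0.99), Cyp26a1 (0.99) and Mknk2 (0.97). Without the SB libraries (n = 12), r was 0.87 for Rgma with Id1, 0.89 for Zbtb16 with Id2 and 0.96 for Cd24a with Id3.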

How the data were processed

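The deposited table gives, per the labels and its own values, raw fragment counts per gene for 15 libraries made by the authors. Per the submitters' processing notes, HTSeq 0.6.1p1 and mm10 were used. The sources used here name no aligner, annotation or strand setting. The 5 tally rows (39.6% to 44.4% of all fragments) were left out. Counts were tested with edgeR 4.0.16 (R 4.3.3): TMM factors (0.985 to 1.02), filterByExpr (minimum count 10; 14600 of 24451 genes), robust quasi-likelihood tests on all 15 libraries with 1 mean per group, and Benjamini-Hochberg adjustment over all tested genes with a threshold of 0.05. CPM use TMM-scaled totals, and RPKM use GENCODE exon lengths. Sampling noise was exceeded between replicates of every group (chi-square per degree of freedom 2.80 to 16.7). Alternatives were DESeq2 1.42.0, other scalings and filters, a replicate block, fits of the compared libraries and leaving out libraries. Statistics were tested on simulated data. The members and lists were chosen with earlier results of these data known. All 9 members are named, with up to 4 genes of each BMP list by smallest p past the threshold and the 3 genes most correlated with Id1, Id2 and Id3. The 8 comparisons share libraries. Groups and replicate numbers come from the sample titles. Same-numbered libraries of the control and Vprbp siRNA groups without additions deviated together (correlations 0.12, 0.20 and 0.37), each over the limit of 0.1 taken for pairing, a limit that the remaining pairs of groups did not pass for every number.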

Additional observations from a re-analysis of the deposited data

How the results depend on the processing

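Over 23 other settings, the 12 calls among the 8 genes were refitted 168 times, and 10 of those refits lost a call, all for Id4 with SB or for Id2 with Activin in Vprbp siRNA cells; no called value changed sign, and 2 calls were added, both for Id1 with Activin in Vprbp siRNA cells. The number of genes called among the 8 stayed within 1.5 times its value in 7 of the 8 comparisons. In the eighth, Activin with the Vprbp siRNA, it was 1, and it was 0 with only the compared libraries, 0 to 2 with 1 replicate left out, and 2 with the 3 libraries that lay apart left out, a setting chosen after seeing the data. Id1 in that comparison was -0.014 with the replicate block, -0.04 without Vprbp siRNA replicate 2, -0.92 without Vprbp siRNA with Activin replicate 1 and -0.97 without the 3 libraries, with a range of -0.92 to 0.42 over all fits with 1 replicate left out. Id3 there was -0.37 and -0.46 in the last of these settings, with a range of -0.37 to 1.23. For Vprbp against control siRNA with Activin, Id1 was -0.086 without that library and -0.087 without the 3, with a range of -0.086 to 1.25. The difference of the Activin response was -0.31 and -0.43 for Id1 (range -0.31 to 1.02) and -0.090 and -0.14 for Id3 (range -0.090 to 1.51). Id4 with SB had an adjusted p of 0.056 without the 3 libraries. The cause was not tested.

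Counts over all genes moved more. Activin with the control siRNA gave 705, and 1058 with the replicate block and 265 (without control siRNA with Activin replicate 3) to 721 with 1 replicate left out. Activin with the Vprbp siRNA gave 894, and 373 with only the compared libraries and 351 (without Vprbp siRNA replicate 3) to 1167 with 1 left out. Vprbp siRNA alone gave 6: 10 without a filter, 31 with DESeq2, 18 with the replicate block, 1 with only the compared libraries, 2 (without control siRNA replicate 2, among others) to 37 (without Vprbp siRNA replicate 3) with 1 left out and 76 without the 3 libraries. With Activin it gave 6: 15, 76, 51, 68, 0 to 21 and 205 in the same order. Over both levels it gave 137: 343 with DESeq2, 273 with the block, 76 with the compared libraries, 24 (without control siRNA with Activin replicate 1) to 395 (without Vprbp siRNA replicate 3) with 1 left out and 475 without the 3. The difference of responses gave 0, and 1 without the 3. The replicate block changed no call among the 8 genes. Low counts limit Smad9, Msx1 and Atoh8, where single libraries hold as few as 6, 0 and 3 counts.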

Other observations

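Among the genes most alike in pattern to the Id genes, Cd24a, a surface glycoprotein, averaged 44.2 CPM with the control siRNA, 54.8 with the Vprbp siRNA, 37.9 with the control siRNA and Activin, 66.7 with the Vprbp siRNA and Activin, and 197 with SB. Cyp26a1, which breaks down retinoic acid, averaged 7.54, 8.77, 6.57, 15.8 and 36.7 CPM in the same order. Kitl, the ligand of the Kit receptor, averaged 3.48, 3.19, 1.70, 3.94 and 12.5 CPM. These genes were selected for their likeness, so their order of groups is a description.

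Within groups, after subtracting group means, Id1 and Id3 had r = 0.93 over the 15 libraries and 0.57 when Vprbp siRNA with Activin replicate 1 was left out. For Id1 and Id2 the values were 0.70 and 0.26.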
